A study of Caenorhabditis elegans with 2 samples.

Results

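The 10 genes described here encode the core of the transforming growth factor beta (TGF-beta) pathways of Caenorhabditis elegans. They are the ligand genes dbl-1 and daf-7, the receptor genes sma-6, daf-1 and daf-4, and the Smad genes sma-2, sma-3, sma-4, daf-14 and daf-3. They were taken by name from the Ensembl annotation for their place in the pathway, as 10 of 19973 nuclear protein-coding genes. The rule uses no measured value, but the genes were put together with earlier results of these data known. For each gene, every peak summit from 2000 bp upstream of the annotated gene start to the gene end was collected, and this stretch is called its window.

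The data are chromatin immunoprecipitation sequencing (ChIP-seq) peaks of eGFP-tagged C34F6.9, whose product RefSeq lists as a USP domain-containing protein. The animals were whole L2 (second stage) larvae, labelled as males and females pooled, of strain OP324, genotype unc-119(ed3) III; wgIs324. The labels call it an insertion targeting C34F6.9, and both libraries share this genotype. There was 1 group of 2 replicates, described as biological in the labels, so nothing was compared between conditions. The submitters' optimal list holds 5692 peaks, which are the 5692 regions of highest signal among 30000 pooled regions. Each replicate has its own list of 30000 regions, and depth is unknown because the lists hold no read counts. The signal is the submitters' value per peak, on a scale not shared between lists, so ranks (1 for the highest signal) are given for each list. Whole animals were used, so the cells in which a peak arose are not known. All positions are in ce11.

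TGF-beta ligands are secreted proteins that bring type I and type II receptor kinases together, and the receptors phosphorylate Smad proteins, which act in the nucleus. In C. elegans the DBL-1 branch sets body size and patterns the male tail. The DAF-7 branch promotes reproductive growth over entry into the dauer larva, an arrested stage formed under harsh conditions. Both branches share the type II receptor DAF-4.

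Sequences of 101 bases centred on 6 of the optimal summits are shown because these are the strongest sites at each gene with a summit. They are written 5′ to 3′ on the strand of the gene, read from RefSeq's WBcel235 genome, the assembly that ce11 names. Capitals mark matches on either strand to the motifs searched.
daf-14 intron, chrIV:10252504-10252604, plus strand: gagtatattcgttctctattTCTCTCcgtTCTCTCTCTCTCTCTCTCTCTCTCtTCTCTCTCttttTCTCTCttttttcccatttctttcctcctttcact
daf-3 upstream, chrX:826065-826165, minus strand: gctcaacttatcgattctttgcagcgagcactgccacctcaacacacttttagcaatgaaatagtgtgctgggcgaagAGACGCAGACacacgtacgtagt
daf-1 upstream, chrIV:132215-132315, plus strand: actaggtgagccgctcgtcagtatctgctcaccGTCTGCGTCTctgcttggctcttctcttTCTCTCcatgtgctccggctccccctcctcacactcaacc
daf-4 upstream, chrIII:5623564-5623664, plus strand: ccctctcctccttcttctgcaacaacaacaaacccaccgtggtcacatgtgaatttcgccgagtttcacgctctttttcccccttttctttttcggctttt
sma-3 upstream, chrIII:6864073-6864173, minus strand: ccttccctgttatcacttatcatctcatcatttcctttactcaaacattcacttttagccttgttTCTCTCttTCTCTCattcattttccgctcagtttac
sma-2 internal 5′ end, chrIII:8754848-8754948, plus strand: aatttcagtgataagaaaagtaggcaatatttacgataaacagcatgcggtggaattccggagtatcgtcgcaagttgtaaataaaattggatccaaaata

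The daf-14 summit lay in a pyrimidine repeat. Its 101 bases held 14 positions of GAGAGA or its complement, overlapping ones counted separately, and an unbroken run of 25 alternating C and T bases. Only 15 of 5692 optimal summits (0.264%) held at least 14 such positions, and 20 (0.351%) held a run of at least 25 bases. The sources used here do not say how reads that match several places were treated, and the part of the repeat in the signal was not tested. GAGAGA also occurred at sma-3, at daf-1 and at the summit of sma-2 that overlaps an annotated untranslated region and is not shown. That makes 4 of the 9 optimal summits in these windows, beside 31.2% of all optimal summits.

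The motif GACGCAG occurred at daf-1 and at daf-3, each time overlapping matches to the short Smad-binding motif GTCT. How often these motifs overlap over all optimal summits was not measured. GACGCAG was found at 2 of 9 summits here and at 12.5% of all optimal summits. The motif GTCT was found at 3 of 9 summits, in daf-1, daf-3 and sma-2, and at 58.5% of all. The palindromic Smad element GTCTAGAC and the GC-rich Smad site GGCGCC had no match at the 9 summits, and were present at 0.0703% and 1.91% of all optimal summits. Both daf-4 summits lacked all of the 5 motifs. The GC content of these 9 stretches of 101 bases ran from 34.7% to 58.4%, with a median of 39.6%, beside a median of 43.6% over all optimal summits.

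Optimal summits were found at 6 of the 10 genes, and 27.4% of all coding genes had one in the same kind of window. The 6 were daf-1, daf-4, sma-2, sma-3, daf-14 and daf-3, with 9 summits between them. Neither ligand gene had one, 2 of 3 receptor genes had 3 summits, and 4 of 5 Smad genes had 6. At least 2 summits were found at daf-4, sma-2 and daf-14, which is 3 of 10 genes, beside 5.36% of coding genes. A summit no more than 500 bp from one of the gene's annotated 5′ ends was found at 4 of 10 genes (daf-1, daf-4, sma-2 and sma-3), beside 17% of coding genes. No test was made of these shares, because of how the genes were put together.

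**Figure D1:**
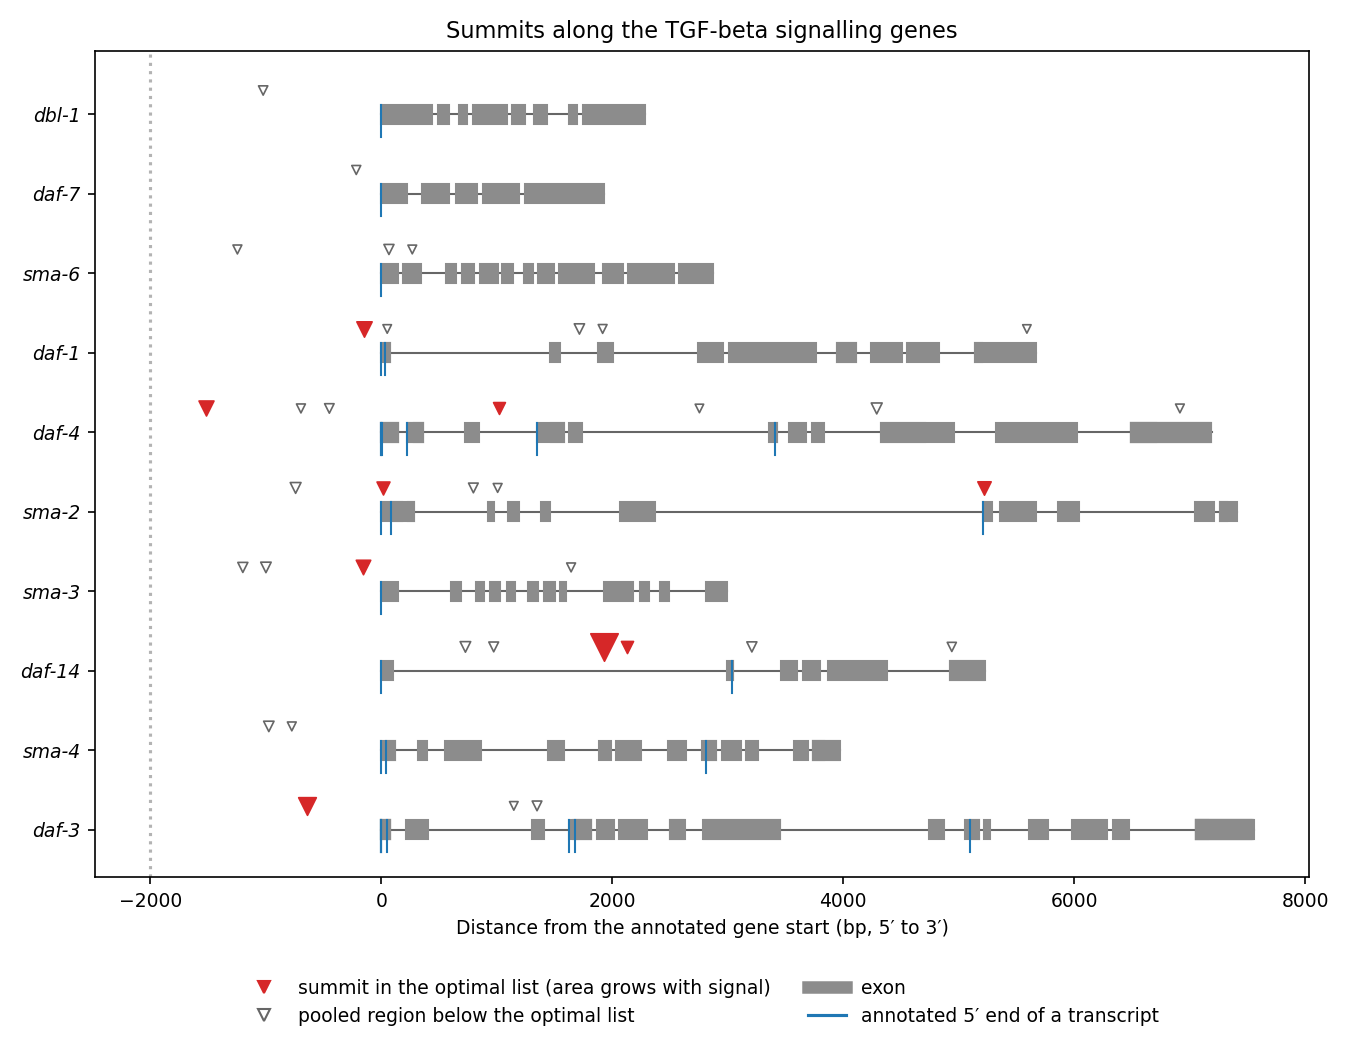
Maps of the 10 genes, with the distance from the annotated gene start in bp on the horizontal axis. Filled triangles are the 9 summits of the optimal list, open triangles the 28 pooled regions below it, grey boxes exons and blue lines annotated 5′ ends, and the largest triangle is the daf-14 intron peak of signal 486.

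The windows of these genes were longer than usual, and longer windows held summits more often. The median window was 6.60 kb here and 4.03 kb over all coding genes. Per kb of window there were 0.134 optimal summits for the 10 genes and 0.0670 over all coding genes, where a summit in several windows counts in each. Among coding genes with windows of 8 to 10 kb, 42.5% had a summit, and all 3 members of that length (daf-4, sma-2 and daf-3) did. Of windows of 6 to 8 kb 37.2% had one, as did both members there, daf-1 and daf-14. Of windows of 4 to 6 kb 27.5% had one, beside 1 of 4 members (sma-3, not dbl-1, sma-6 or sma-4). The share was 20.3% under 4 kb, where daf-7 was the one member and had none.

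**Figure D2:**
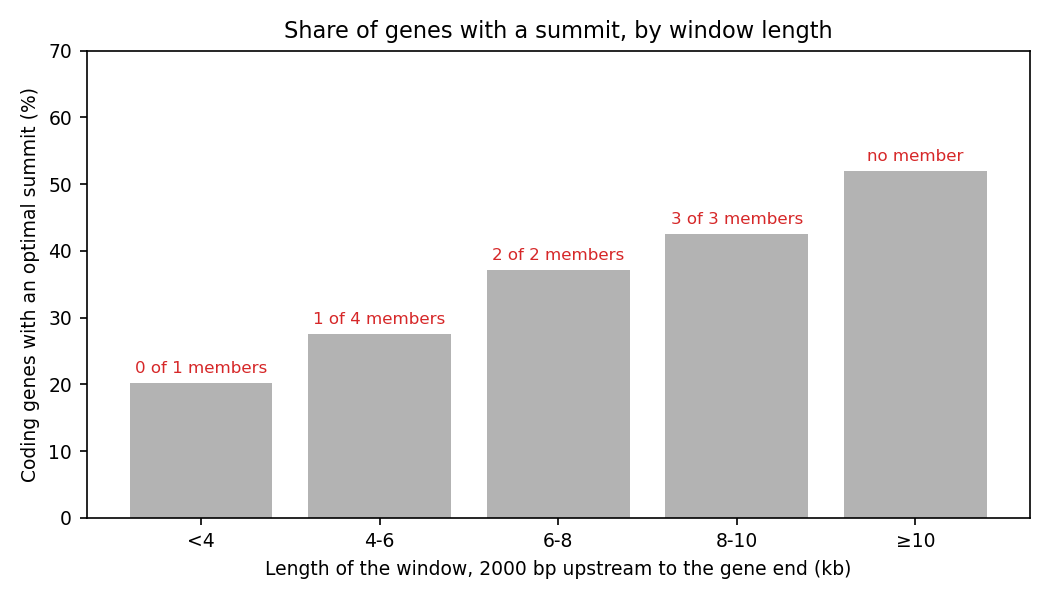
Share of all coding genes with an optimal summit (bars, %) by the length of the window in kb, with the count of the 10 genes above each bar. The bars rise from 20.3% under 4 kb to 51.9% at 10 kb or more, and the 5 members with windows of 6 kb or more all had a summit.

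When each gene is taken by its strongest region, the ligand genes ranked lowest of the 10. Their windows were also the shortest of the 10, at 4.28 kb for dbl-1 and 3.93 kb for daf-7. Of all coding genes, 42.0% had a region of the dbl-1 rank or higher in their window, and 46.5% one of the daf-7 rank or higher. The part of window length in these ranks was not tested. For dbl-1 (WBGene00000936, V:6758135-6760418, plus strand), the bone morphogenetic protein-like ligand of the body size branch, the single pooled region lay 1022 bp upstream at rank 15019 with a signal of 23.7. Replicate 1 had a region there at rank 10864 and replicate 2 had no region in the window. For daf-7 (WBGene00000903, III:811844-813773, plus strand), the dauer branch ligand, the single pooled region lay 216 bp upstream at rank 18820. Neither replicate list had a summit within 100 bp of it, although replicate 2 had a region of rank 10578 at the gene start itself. Both regions were thus far below the optimal list and seen in at most 1 replicate. The nearest optimal summits to the gene starts were 27183 bp away for dbl-1 and 10831 bp away for daf-7.

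The type I receptor genes differed in whether a summit was listed. The sma-6 gene (WBGene00004860, II:6324484-6327355, plus strand), whose product pairs with DBL-1, had 3 pooled regions and none in the optimal list. Its strongest had rank 9683 and lay 67 bp inside the gene, in a coding exon, with no summit within 100 bp in either replicate. The daf-1 gene (WBGene00000897, IV:132416-138081, plus strand) encodes the type I receptor of the dauer branch. Its optimal summit lay 151 bp upstream at IV:132265, with rank 2492 and a signal of 126. The same site had rank 2368 and signal 79.6 in replicate 1, and rank 2810 and signal 47.3 in replicate 2. The replicates thus placed the daf-1 site at similar ranks. The next coding gene upstream, cox-6C, a cytochrome c oxidase subunit gene on the same strand, ended 4776 bp away. Further pooled regions at daf-1 ranked no higher than 8826.

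At daf-4 (WBGene00000900, III:5625135-5632323, plus strand), the type II receptor gene used by both branches, 2 of 7 pooled regions were in the optimal list. The stronger lay 1521 bp upstream at III:5623614, with rank 2682 and a signal of 119. It had rank 2894 in replicate 1 and rank 2440 in replicate 2, with signals of 67.4 and 53.2. No other coding 5′ end lay nearer than that of basl-1, 8666 bp away. The second lay in an intron at III:5626153, 333 bp upstream of the 5′ end of a shorter transcript, with rank 5301 and a signal of 61.4. In replicate 1 it had rank 4295 and signal 46.6, but in replicate 2 rank 11999 and signal 13.1. The intron summit was therefore among the highest 5692 of 1 replicate only. A region outside the list, in an intron 4290 bp into the gene, stood at rank 6959.

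The receptor-regulated Smad genes sma-2 and sma-3 had summits at their 5′ ends. For sma-2 (WBGene00004856, III:8749680-8757089, plus strand), 2 of 5 pooled regions were listed. One lay at III:8749699, 19 bp into the annotated 5′ untranslated region, with rank 4079 and a signal of 80.1. It had rank 4135 with signal 48.3 in replicate 1 and rank 4694 with signal 30.1 in replicate 2. This summit also lies inside the longer transcript of ugtp-1, on the opposite strand, 998 bp upstream of the nearest 5′ end of that gene. The other lay 5218 bp into the gene at III:8754898, with rank 3706 and a signal of 87.7. Its ranks were 3789 and 4336 in replicates 1 and 2, with signals of 52.4 and 32.4. It was 6 bp from the 5′ end of the short sma-2 transcript and 148 bp upstream of tomm-70, a gene on the opposite strand within sma-2 that encodes a mitochondrial import receptor. These 5′ ends face away from each other, and the peak cannot be assigned to either gene from its position.

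For sma-3 (WBGene00004857, III:6860974-6863968, minus strand), the listed summit lay 155 bp upstream at III:6864123, with rank 2968 and a signal of 109. Replicate 1 had rank 3032 and signal 64.5, and replicate 2 had rank 3116 and signal 43.3. The ranks of the sma-3 site thus differed little between the lists. Regions 998 and 1198 bp upstream of sma-3, towards the 3′ end of cra-1, were below the list at ranks 8155 and 9806. By contrast the common Smad gene sma-4 (WBGene00004858, III:5816232-5820204, plus strand), whose product joins SMA-2 and SMA-3, had none in the optimal list. Its 2 pooled regions, of ranks 8478 and 21376, lay upstream and nearer to the 5′ end of R12B2.7, at 214 and 413 bp, than to its own. The higher was seen in replicate 2 (rank 7190) and the lower in replicate 1 (rank 16391).

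The strongest peak at any of the 10 genes lay in daf-14 (WBGene00000910, IV:10250627-10255852, plus strand), which encodes a Smad of the dauer branch. Its summit at IV:10252554 was 1927 bp into the gene, in the long first intron, and had rank 130 with a signal of 486. It held rank 171 with signal 263 in replicate 1 and rank 99 with signal 229.0 in replicate 2. Of all coding genes, 1.01% had a region of that rank or higher in their window. The nearest 5′ end was that of the shorter daf-14 transcript, 1112 bp downstream, and the nearest 5′ end of another coding gene, F01G10.10, was 6394 bp away. A second listed peak had its summit 204 bp further on, at IV:10252758, with rank 5054 and a signal of 64.9. It shares 172 bp with the first peak, so the peaks are not separate regions. In replicate 1 it had rank 4172 and in replicate 2 rank 10066, with signals of 47.9 and 15.1.

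The daf-3 gene (WBGene00000899, X:817922-825475, minus strand) encodes the Smad that DAF-7 signalling opposes. It had the second strongest peak of the 10 genes, 640 bp upstream at X:826115, with rank 1500 and a signal of 180.0. Replicate 1 gave rank 1271 and signal 119.7, and replicate 2 gave rank 1972 and signal 61.7. The summit was 2788 bp from the 5′ end of the divergent gene wdr-54. Its distance from the daf-3 gene start is over 500 bp, which is why daf-3 is not among the 4 genes with a summit at a 5′ end. Inside daf-3, 2 regions near an internal 5′ end stood at ranks 11675 and 25887.

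Across the 9 listed summits, 4 lay upstream of the gene, 3 in introns, 1 in a coding exon and 1 in the 5′ untranslated region. For all 9 the nearest coding 5′ end belonged to the gene itself, and 5 were within 500 bp of it. Because windows were drawn around each gene, a near 5′ end of its own is partly built in. No share over all optimal summits was measured for either count or for the places of the summits. The sma-2 summit at III:8754898 was also 148 bp from tomm-70. The median rank of the 9 summits was 2968, beside 2846.5 over the optimal list, and 4 ranked above that median. All 9 had a summit within 100 bp in both full replicate lists, at most 38 bp away in replicate 1 and 65 bp in replicate 2. For 7 of 9 the matches were among the 5692 highest regions of each replicate, beside 75.4% of all optimal summits. The exceptions were the weaker summits of daf-14 and daf-4. The optimal list was drawn from the pool of the same replicates, so these matches are not independent of it.

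**Figure D3:**
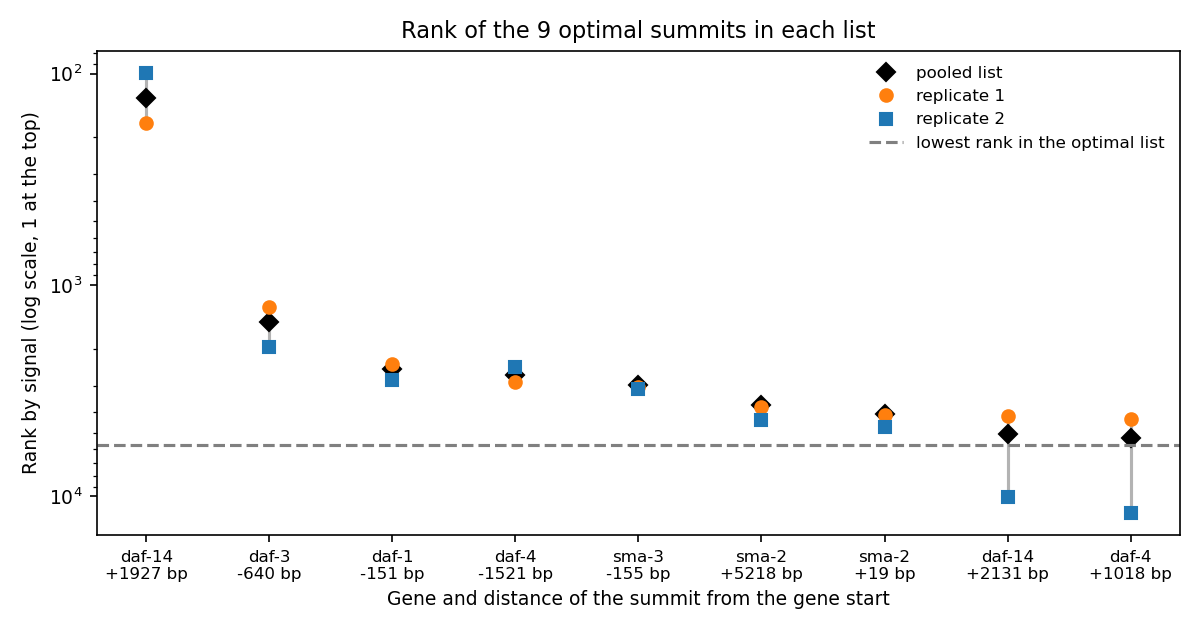
Rank by signal (log axis, 1 at the top) of the 9 optimal summits in the pooled list and in each replicate, ordered by pooled rank. The 7 strongest keep ranks above the dashed line at 5692 in all 3 lists, while the last 2, at daf-14 and daf-4, fall to 10066 and 11999 in replicate 2.

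Each replicate alone named the same 6 genes. The 5692 highest regions of replicate 1 put 11 summits in the windows of 6 genes, beside 27.2% of coding genes with one. Those of replicate 2 put 7 summits in the windows of 6 genes, beside 26.8%. Replicate 1 added the daf-4 intron region at rank 5670 and a daf-14 intron region at rank 5467, 974 bp into the gene. Replicate 2 lacked the weaker summits of daf-14 and daf-4.

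The 10 windows also held 28 pooled regions below the optimal list. With these, all 10 genes had a region, beside 56.1% of coding genes. The windows of the 10 genes were longer than usual, and the share with a pooled region was not measured by window length. The signals of the 28 regions ran from 13.4 to 46.7, where the lowest optimal signal was 57.3. Their deposited −log10 q-values ran from 0.0761 to 2.49, below the ceiling of 4.07 that every optimal peak holds. Of the 28, 8 had a summit within 100 bp in both replicate lists, 17 in a single replicate and 3 in neither. Over all 24308 pooled regions below the list the shares were 28% (6818), 56.9% (13836) and 15.0% (3654), so the regions at these genes were matched about as often as the rest. The members' values nearest the end of the list were the daf-4 intron summit at rank 5301, inside it, and the daf-4 region at rank 6959 and a region 741 bp upstream of sma-2 at rank 7270, outside it.

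**Figure D4:**
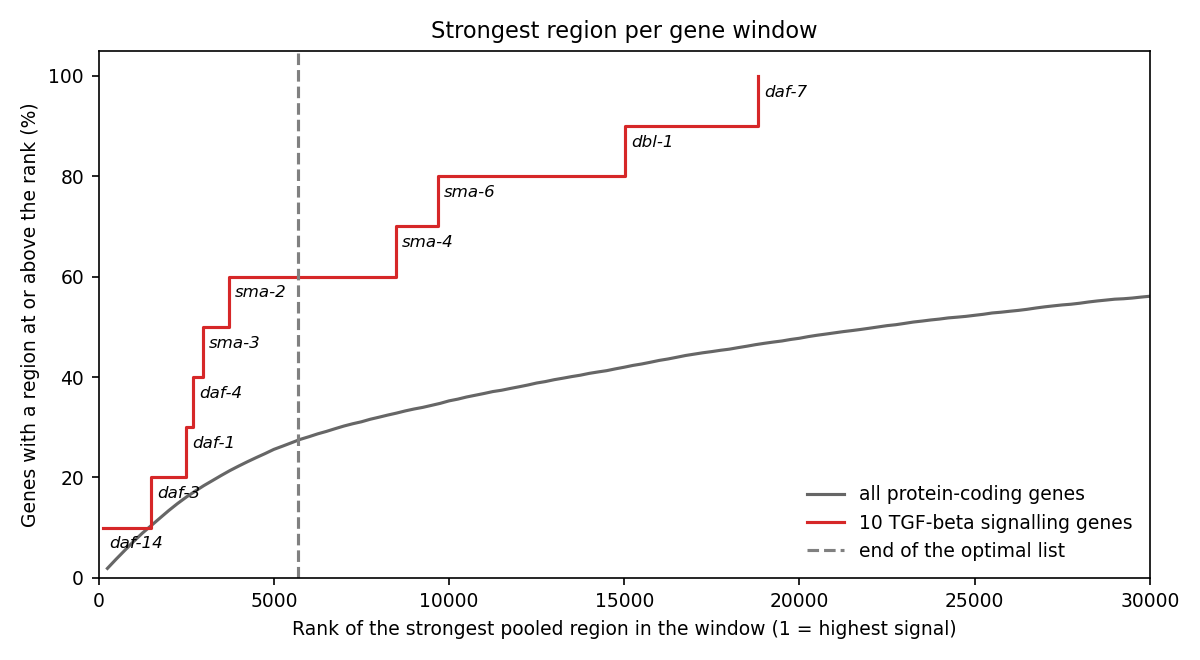
Cumulative share of genes (%) against the rank of the strongest pooled region in the window, for the 10 genes (red steps) and all coding genes (grey line). The steps pass the end of the optimal list (dashed) at 6 of 10 genes, where the grey line stands at 27.4%, and end with dbl-1 and daf-7.

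The upstream limit also cut off some summits. At daf-1 an optimal summit lay 2096 bp upstream (rank 5383), and at daf-3 one lay 2187 bp upstream with rank 1021, higher than the daf-3 summit inside the window. The latter was 1241 bp from wdr-54, nearer to that gene than to daf-3. At daf-4 a peak of rank 410 and signal 331 lay 3769 bp upstream, with no nearer coding 5′ end.

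Other genes of the pathway were taken as a list of 20, also put together with earlier results known. Optimal summits were found in the windows of 12 of the 20, again beside 27.4% of coding genes, with 26 summits of median rank 2871.5. Their windows, with a median of 6.76 kb, were also longer than usual, and held 0.152 optimal summits per kb. Of the 26 summits, 13 were upstream of the gene and 13 in introns, with no such share measured over all optimal summits. Some belong to overlapping peaks, at daf-5 and at sup-17. Within 500 bp of a 5′ end the count was 9 of 20, beside 17%.

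Both nuclear partners had several summits, where 5.36% of coding genes had 2 or more. The daf-5 gene, which encodes a Ski-related partner of DAF-3, had 8 optimal summits, all in introns, the highest at rank 937 (II:14040392). Its peak overlaps that of II:14040594, and the peaks of II:14037987 and II:14038198 overlap, so the 8 are not all separate regions. The last 2 summits lay 266 and 477 bp upstream of an internal daf-5 5′ end. The daf-5 window of 21.1 kb was the longest of the list, and that of sma-9 was 15.7 kb. Of coding genes with windows of 10 kb or more, 51.9% had a summit. The share with several summits was not measured by window length, so these counts are not set apart from it. The sma-9 gene, which encodes the Schnurri homologue of the body size branch, had 4 optimal summits. The highest lay in an intron at X:10771261, with rank 268 and a signal of 388. No other gene of the 20 had a summit above rank 500, and like the daf-14 peak the sma-9 peak lay over 1000 bp from any annotated 5′ end of its gene.

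Among ligands outside the core, tig-2 had 2 optimal summits, at 155 bp upstream (rank 4089) and at 1446 bp upstream (rank 2325). The stronger was 304 bp from the divergent gene F39G3.3. The ligand genes tig-3 and unc-129 had none, and unc-129, known for axon guidance, had no pooled region at all. Over both lists 1 of 5 ligand genes had an optimal summit, a count too small to set apart from the 27.4% of all coding genes.

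Of 10 modulator genes 6 had a summit, beside 27.4% of all coding genes. Their windows ran from 3.44 kb (tsp-12) to 13.7 kb (unc-40), and 51.9% of coding genes with windows of 10 kb or more had a summit. Among the 6, only unc-40 and lon-2 had windows that long. The windows of crm-1, adt-2 and tsp-14 were also over 10 kb and held no optimal summit. The netrin receptor gene unc-40 had the strongest, 271 bp upstream at rank 607, and 490 bp from the divergent gene npp-7. Next were the tetraspanin genes tsp-21 (rank 1357, in an intron) and tsp-12 (rank 1475). That tsp-12 peak was 309 bp from copg-1 and 1036 bp from tsp-12, and a weaker one (rank 5569) lay 203 bp upstream of tsp-12 itself. The weaker tsp-12 site had rank 8855 in replicate 2. The metalloprotease gene sup-17 had ranks 1951 and 5570, from 2 peaks that overlap and so are not separate regions. The weaker sup-17 summit had rank 6036 in replicate 1 and rank 16159 in replicate 2. The glypican gene lon-2 and the sma-10 gene, which encodes a leucine-rich repeat membrane protein, had summits only near the end of the list, at ranks 5644 and 5539. The lon-2 site had rank 8330 in replicate 2, and the sma-10 site had no match in replicate 1. No optimal summit was found at drag-1, crm-1, adt-2 or tsp-14.

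The receptor-associated genes bra-1 and bra-2 each had an upstream summit, at ranks 1273 and 2143, 203 and 276 bp from their 5′ ends. The bra-2 summit was also 395 bp from the divergent gene F23H11.5. Of the other Smad genes, tag-68 had a summit 1849 bp upstream at rank 4680, and daf-8, which encodes a further Smad of the dauer branch, had none, with its strongest region at rank 15369. The target gene lon-1, which the body size branch represses, had no optimal summit and a strongest region of rank 16633.

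**Figure D5:**
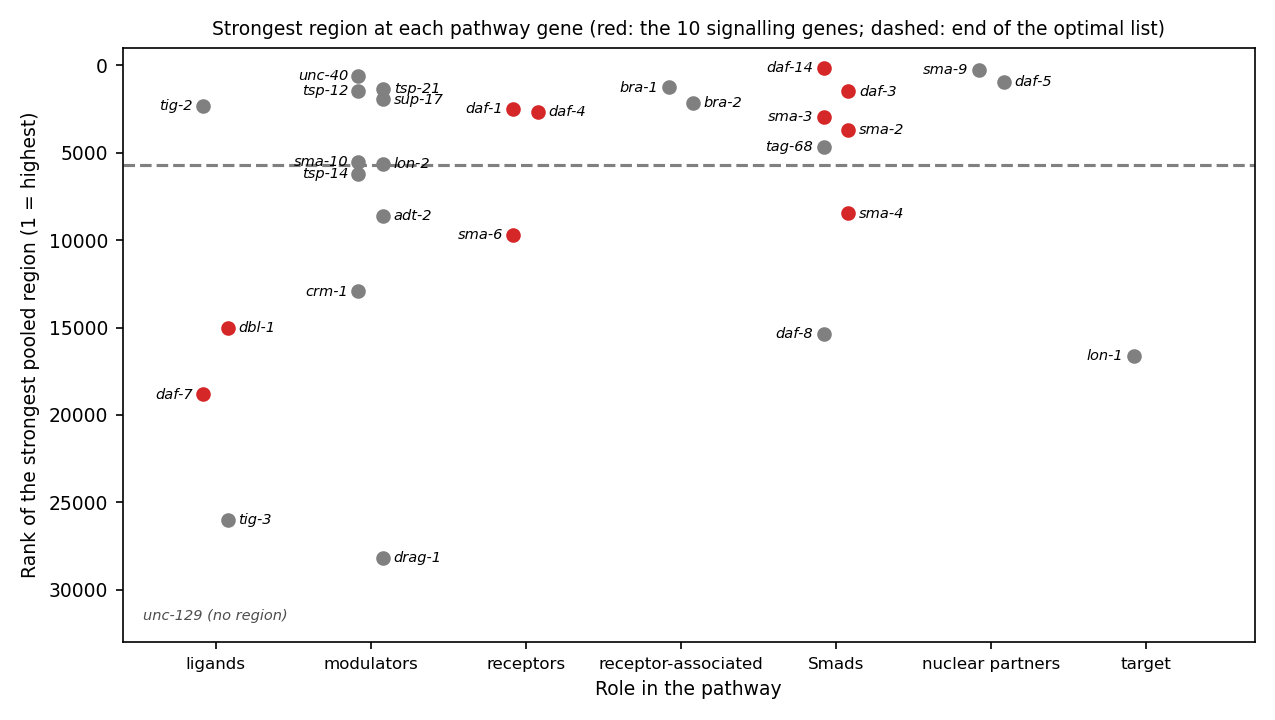
Rank of the strongest pooled region (1 at the top) at each of 30 pathway genes, by role, with the 10 core genes in red and the end of the optimal list dashed. The ligands dbl-1, daf-7 and tig-3 lie at rank 15019 or lower, tig-2 at 2325, and unc-129 has no region.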

How the data were processed

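The deposited lists are narrowPeak files for ce11. By the listing deposited with the files, the authors called regions on each replicate, and on both together, with a control, and made the optimal list by applying an irreproducible discovery rate (IDR) threshold. The peak signal, the −log10 q-value and the summit offset are the authors' values as deposited. The sources used here name no aligner, peak caller or version. The ce10 lists and the control were not used here.

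A summit is the peak start plus the deposited offset, in 1-based positions. Genes, transcripts and 5′ ends came from Ensembl release 115 (WBcel235, ce11 coordinates), and all 30 gene names matched 1 gene each. Windows ran from 2000 bp upstream to the gene end, summits of different lists were matched within 100 bp, and each replicate alone used its 5692 highest regions. Motifs, on both strands, were sought within 50 bp of a summit. A 5′ end is annotated only, since many worm transcripts are trans-spliced.

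The report names all 10 members, each listed pathway gene with an optimal summit, and the genes nearest the members' summits. Pathway genes without a summit and the run of C and T were added after the values were seen. The genes, lists and motifs were chosen with earlier results of these data known, and no test was made. Alternatives were other upstream limits, distances, lists and matches, and each replicate alone. Window counting was tested on simulated data. Python 3.11.15, numpy 2.4.6, pandas 2.3.3 and matplotlib 3.10.9 were used.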

Additional observations from a re-analysis of the deposited data

How the results depend on the processing

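Over 31 alternatives to the 5 counts, 24 gave a count within 1.5 times the reported one. With every pooled region, background included, the genes with a summit went from 6 to 10, their summits from 9 to 37, the genes with one at a 5′ end from 4 to 8 and the other pathway genes from 12 to 19. Of all coding genes, 56.1% had a pooled region in the window. In the 2846 peaks of highest signal the members' summits fell to 4, at daf-1, daf-4, daf-14 and daf-3, and only daf-1 (1 gene) kept one at a 5′ end. Of all coding genes, 17.2% had a region of rank 2750 or higher in the window, and 18.4% one of rank 3000 or higher. An upstream limit of 5000 bp gave 14 summits at 7 genes, adding sma-6, and a limit of 500 bp gave 7 at 5 genes, without daf-3. The share of all coding genes was not measured at these limits. It was also not measured for summits at a 5′ end in the other lists, so those counts have no share beside them. Each replicate alone gave 6 genes, 7 to 11 summits, 3 to 4 genes with one at a 5′ end and 12 other pathway genes. These 12 were not the same genes throughout. Replicate 1 had adt-2 in place of sma-10, and replicate 2 had tsp-14 in place of lon-2. Matching within 50 bp left 6 of the 7 summits found in both replicates. Of 70 alternatives for single genes, 22 moved the count of summits by over 1.5 times. No paired analysis was possible because the 2 replicates form 1 group. Depth is unknown, and ranks near 5692 separate listed from unlisted sites by little signal.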

Other observations

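The only optimal summit between 2000 and 5000 bp upstream of sma-6 lay 3281 bp from that gene (II:6321203, rank 1311), but 44 bp from a 5′ end of efr-3. Beyond the daf-1 summit at 2096 bp, another lay 3298 bp upstream at rank 5676, among the last of the 5692 listed peaks.

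Motif shares differed between the listed peaks and the 24308 pooled regions below them. GACGCAG, present at daf-1 and daf-3, was within 50 bp of 12.5% of optimal summits and 1.76% of the lower ones. For GAGAGA, present at daf-14, daf-1, sma-3 and sma-2, the shares were 31.2% and 9.89%. The motif GTCT was at 58.5% and 37.9%, GGCGCC at 1.91% and 0.753%, and GTCTAGAC at 0.0703% and 0.0370%. The motifs were chosen with earlier results of these data known, so these shares are descriptions with no test. The base composition of the lower regions was not measured.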
